A study of Homo sapiens with 12 samples.

Results

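The ID genes encode inhibitors of DNA binding, and this account follows ID1, ID2, ID3 and ID4 with the genes of their E-protein partners, TCF3, TCF4 and TCF12. The members were taken by gene symbol, which gave 7 genes of the 63152 in the count table. Of these, 6 passed the filter on low counts and were tested, and ID4 had 0 counts in every library. The family was chosen by measured values of these same libraries, the count-based fold change of ID2 in cells given 5 µM acriflavine against control. The levels and fold changes of the members are therefore given as a description, without p-values.

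Acriflavine, a dye of the acridine type, binds DNA and interferes with the pairing of hypoxia-inducible factor subunits, and the study's title concerns the epithelial-to-mesenchymal transition. Poly-A RNA was sequenced from 12 cultures, 4 biological replicates in each of 3 groups: control cells, cells given 2.5 µM acriflavine for 24 h and cells given 5 µM acriflavine for 24 h. All groups carried the cell line label HepG2, a human hepatoblastoma line, while the sample descriptions name HepG2S1, a derivative grown over months in rising doses of the kinase inhibitor sorafenib. The controls are called untreated in the design, and the treatment protocol names DMSO as vehicle. By these descriptions treated and control cells share 1 cell line and its selection for sorafenib resistance.

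Library totals were 10733567 to 15116842 counts. Of 12 hepatocyte markers, 12 averaged under 1 CPM (the count scaled to the TMM-adjusted library total) in controls, and ALB, AFP and TF had 0 control counts, which goes against the label of a liver line. The summed CPM of that list lay between 0.878 and 1.69 in controls, between 0.984 and 2.39 at 2.5 µM and between 9.17 and 12.2 at 5 µM. Most of that 5 µM sum was TF, FGB, APOB and HNF4A, which averaged 5.51, 2.04, 1.42 and 1.22 CPM. At 5 µM 8 of the 12 still averaged under 1 CPM, among them ALB at 0.0366 and AFP at 0.0183 CPM. The 5 epithelial markers summed to 1157 to 1338 CPM at 5 µM and 1993 to 2419 CPM in controls, and the 7 fibroblast markers to 556 to 598 CPM at 5 µM and 618 to 768 CPM in controls. Within the epithelial list KRT8, KRT18 and KRT19 were lower at 5 µM, while EPCAM averaged 5.87 CPM at 5 µM and 3.57 CPM in controls and CDH1 4.85 CPM at 5 µM and 0.358 CPM in controls. Within the fibroblast list DCN and LUM were lower at 5 µM, while COL1A1 averaged 30.9 CPM at 5 µM and 22.5 CPM in controls and PDGFRB 16.3 CPM at 5 µM and 4.51 CPM in controls. The part of these markers in the results on the family was not tested. The endothelial list, with PECAM1 at 0 in all libraries, summed to 7.12 to 8.68 CPM at 5 µM and 0.169 to 0.536 CPM in controls. Most of that 5 µM sum was TEK, which averaged 6.23 CPM at 5 µM and 0.168 CPM in controls, with VWF at 1.65 and 0.139 CPM. The blood cell list, with CD3E at 0 in all libraries, summed to 3.50 to 5.20 CPM at 5 µM and 0.358 to 1.18 CPM in controls. Most of its 5 µM sum was PTPRC, which averaged 2.27 CPM at 5 µM and 0.0390 CPM in controls, and CD14, at 1.57 and 0.511 CPM.

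ID proteins have a helix-loop-helix domain but no basic region, so they pair with E proteins and keep them from binding DNA at E-boxes, the short sites that basic helix-loop-helix (bHLH) factors recognise. ID genes are classical targets of bone morphogenetic protein (BMP) signalling through SMAD factors, and in liver ID1 is a standard readout of BMP action on hepatocytes. E proteins are broadly expressed, and E47, a product of TCF3, is known to repress the E-cadherin gene.

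The promoter windows of ID1, ID2 and ID3 are shown because ID2 differed from controls in the opposite direction to ID1 and ID3. Each is the 250 bases before the RefSeq start, in GRCh38.p14, read 5′ to 3′ on the strand of the gene. The windows lie at chr20:31605039-31605288 on the plus strand for ID1, at chr2:8681806-8682055 on the plus strand for ID2 and at chr1:23559502-23559751 on the minus strand for ID3. Capitals mark matches on either strand to 6 motifs. The E-box was searched as CANNTG. The element bound by BMP SMADs was searched as GGCGCC. The general SMAD binding element was searched as CAGAC. The core of the cyclic AMP response element was searched as TGACG. The CCAAT box was searched by its own letters. The TATA box was searched as TATAAA.
ID1: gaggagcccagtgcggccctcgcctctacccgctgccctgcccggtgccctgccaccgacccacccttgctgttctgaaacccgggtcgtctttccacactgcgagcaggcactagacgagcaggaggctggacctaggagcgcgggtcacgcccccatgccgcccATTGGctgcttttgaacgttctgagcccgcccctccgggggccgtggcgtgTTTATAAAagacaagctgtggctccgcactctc
ID2: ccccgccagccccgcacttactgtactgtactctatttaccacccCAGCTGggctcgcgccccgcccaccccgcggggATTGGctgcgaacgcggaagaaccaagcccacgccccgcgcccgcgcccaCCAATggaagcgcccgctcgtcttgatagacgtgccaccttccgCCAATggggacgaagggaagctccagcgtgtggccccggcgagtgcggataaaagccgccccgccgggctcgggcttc
ID3: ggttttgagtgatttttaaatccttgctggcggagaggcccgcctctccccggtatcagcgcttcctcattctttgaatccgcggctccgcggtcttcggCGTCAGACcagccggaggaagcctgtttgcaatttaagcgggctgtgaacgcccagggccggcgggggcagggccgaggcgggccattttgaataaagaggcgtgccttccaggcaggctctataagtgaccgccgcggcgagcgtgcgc

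The ID2 window held 3 CCAAT matches, at -172 to -168 on the opposite strand and at -122 to -118 and -78 to -74 on the strand of the gene, counted from the start site. It also held 1 E-box, CAGCTG, at -205 to -200. The ID1 window held 1 CCAAT match on the opposite strand at -84 to -80, and TATAAA at -31 to -26, which overlaps a match on the opposite strand at -33 to -28. The ID3 window held a TGACG match on the opposite strand at -150 to -146, which overlaps CAGAC at -147 to -143. Over 34941 RefSeq promoter windows of the same length, 61.8% held CANNTG, 38% CAGAC, 32% CCAAT, 21.2% TGACG, 16.4% GGCGCC and 10.8% TATAAA. These matches are letters in the reference and say nothing of binding in these cells. The windows shown held no GGCGCC, and bases further upstream were not searched. The GC content of the windows was 66.0% for ID1, 69.2% for ID2 and 62.0% for ID3.

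Among the inhibitors, ID1 and ID3 were the abundant mRNAs of control cells and were lower at each dose, while ID2 was scarce in control cells and higher at each dose. At 5 µM ID1 was 2.86-fold and ID3 2.33-fold lower than in controls, and ID2 was 13.2-fold higher. The data are bulk RNA, in which fewer cells expressing a gene and less RNA of it per cell cannot be told apart.

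ID1 (ENSG00000125968), in many cell types the most BMP-responsive of the family, measured 301, 285, 319 and 287 CPM in the controls. It measured 183, 191, 163 and 193 CPM in the 2.5 µM cultures, and 111, 102, 99.5 and 104 CPM in the 5 µM cultures. The 3 groups were fully separated, with controls highest and the 5 µM cultures lowest. The log2 fold change was -1.52 ± 0.05 (SE, n = 4 per group) at 5 µM against control, -0.71 ± 0.05 at 2.5 µM against control and -0.81 ± 0.05 at 5 µM against 2.5 µM.

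ID3 (ENSG00000117318), which often accompanies ID1 as an early BMP and growth factor response gene, measured 266, 257, 272 and 277 CPM in controls. It measured 182, 173, 170 and 198 CPM at 2.5 µM, and 121, 120, 112 and 109 CPM at 5 µM. Its 3 groups did not overlap and lay in the order seen for ID1, by smaller amounts. The log2 fold change was -1.22 ± 0.05 (SE) at 5 µM against control, -0.57 ± 0.05 at 2.5 µM against control and -0.65 ± 0.05 at 5 µM against 2.5 µM. Across the 12 libraries, log2 CPM of ID1 and ID3 had a Pearson correlation of 0.993, a description that shares the 3 dose groups as its main spread.

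ID2 (ENSG00000115738), which besides E proteins can bind retinoblastoma family proteins, measured 6.40, 7.17, 6.88 and 6.93 CPM in controls. It measured 20.6, 21.4, 26.2 and 24.8 CPM at 2.5 µM, and 87.7, 76.4, 97.6 and 98.9 CPM at 5 µM. Every 5 µM culture was above every 2.5 µM culture, and these in turn were above every control. The 5 µM values rest on 891 to 1584 reads per library and the control values on 77 to 98. The log2 fold change was 3.72 ± 0.10 (SE) at 5 µM against control, 1.76 ± 0.11 at 2.5 µM against control (3.39-fold) and 1.96 ± 0.08 at 5 µM against 2.5 µM (3.89-fold). At 5 µM against control, ID2 ranked 436th of the 16839 genes tested from the largest positive fold change, and ID1 580th and ID3 1134th from the largest negative one.

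**Figure D1:**
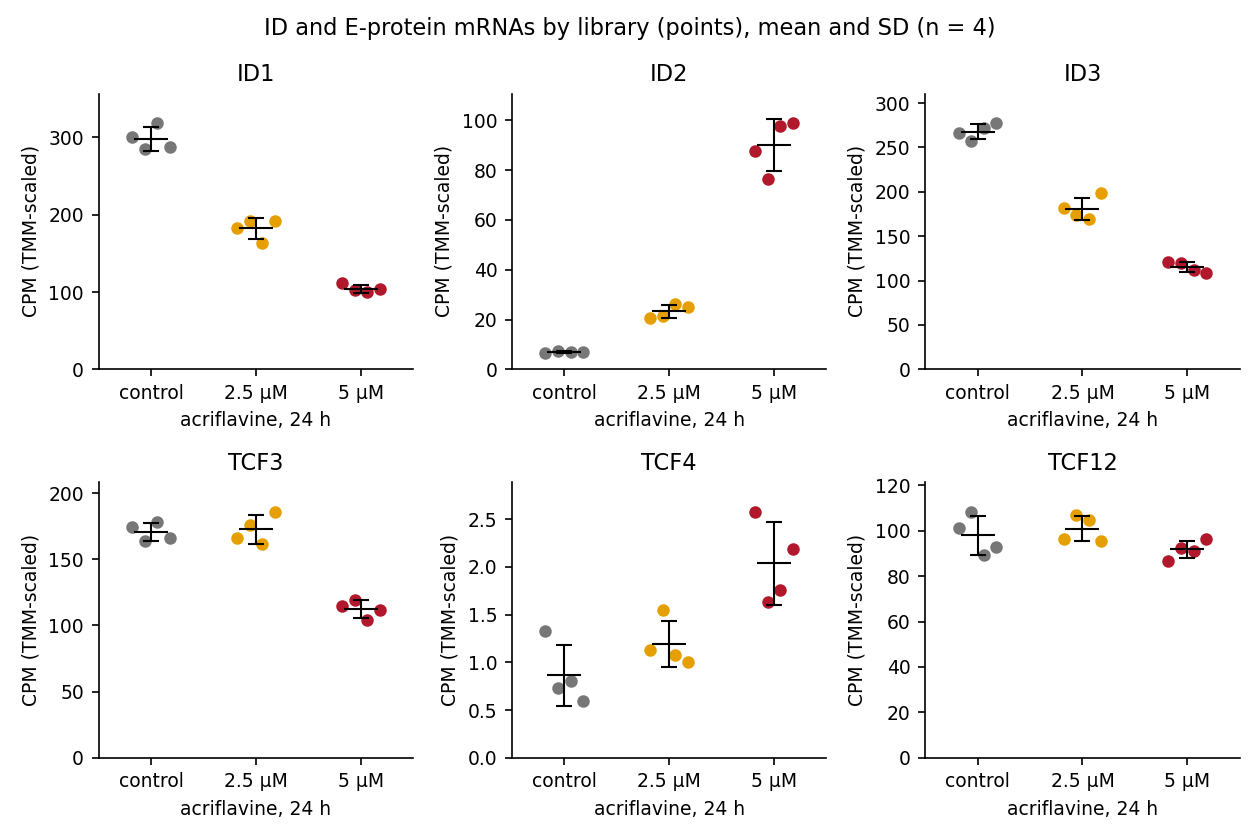
TMM-scaled CPM of 6 members in each library (points) by acriflavine dose, with the mean and SD of 4 libraries. ID1 averages 298, 182 and 104 CPM and ID3 268, 181 and 115 CPM in controls, at 2.5 µM and at 5 µM, ID2 reaches 90.2 CPM at 5 µM, the 5 µM values of TCF3 lie below its others, and TCF12 overlaps at all doses.

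ID4 (ENSG00000172201), the member best known from neural and mammary tissue, had 0 counts in all 12 libraries. With a floor of 3 counts over the 12 libraries this allows a level of up to 0.0191 CPM. Within groups the floor of 3 counts corresponds to 0.0606 CPM in controls, 0.0542 CPM at 2.5 µM and 0.0571 CPM at 5 µM. These limits cover counting error only.

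The sizes of the dose steps were set side by side for each inhibitor. The step from 2.5 to 5 µM minus the step from control to 2.5 µM was -0.10 ± 0.09 on the log2 scale (SE) for ID1, -0.08 ± 0.09 for ID3 and 0.20 ± 0.16 for ID2. Each of these differences is under 1.5 times its SE, so on the log2 scale the 2 steps of each inhibitor could not be told apart at this precision.

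Levels of different genes are compared here as CPM per kilobase of exon, with exon lengths from GENCODE 29. By this measure ID1 was the most abundant inhibitor in each group, with 242 ± 12.4 in controls, 148 ± 11.1 at 2.5 µM and 84.5 ± 4.15 at 5 µM (SD, n = 4). ID3 followed with 149 ± 4.92 in controls, 101 ± 7.05 at 2.5 µM and 64.1 ± 3.23 at 5 µM. ID2 came last with 3.10 ± 0.147 in controls, 10.5 ± 1.22 at 2.5 µM and 40.9 ± 4.73 at 5 µM. The order ID1, ID3, ID2 held without overlap within each group. With the median length of coding transcripts in place of all exons, ID1 and ID3 overlapped at both doses of acriflavine. At 2.5 µM they lay at 146 to 173 and 136 to 158 CPM per kilobase, and at 5 µM at 89.4 to 100.04 and 87.2 to 96.6. ID2 was still below both at 5 µM, at 56.1 to 72.6.

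The make-up of the inhibitor mRNA pool differed between the doses. Summed per length, ID1, ID2 and ID3 came to 394 ± 14.6 CPM per kilobase in controls, 259 ± 16.1 at 2.5 µM and 190 ± 5.71 at 5 µM. ID2 made up 0.789% of that sum in controls, 4.09% at 2.5 µM and 21.6% at 5 µM, with a range of 18.8% to 23.7% over the 5 µM libraries. ID1 made up 61.3% in controls, 57.1% at 2.5 µM and 44.6% at 5 µM. ID3 made up 37.9% in controls, 38.8% at 2.5 µM and 33.9% at 5 µM. With transcript lengths the share of ID2 was 1.03% in controls, 5.27% at 2.5 µM and 26.3% at 5 µM. The ratio of ID1 to ID2 per length was 2.09 ± 0.283 at 5 µM and 78.0 ± 6.37 in controls (SD, n = 4). These are shares of mRNA, and protein was not measured here.

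**Figure D2:**
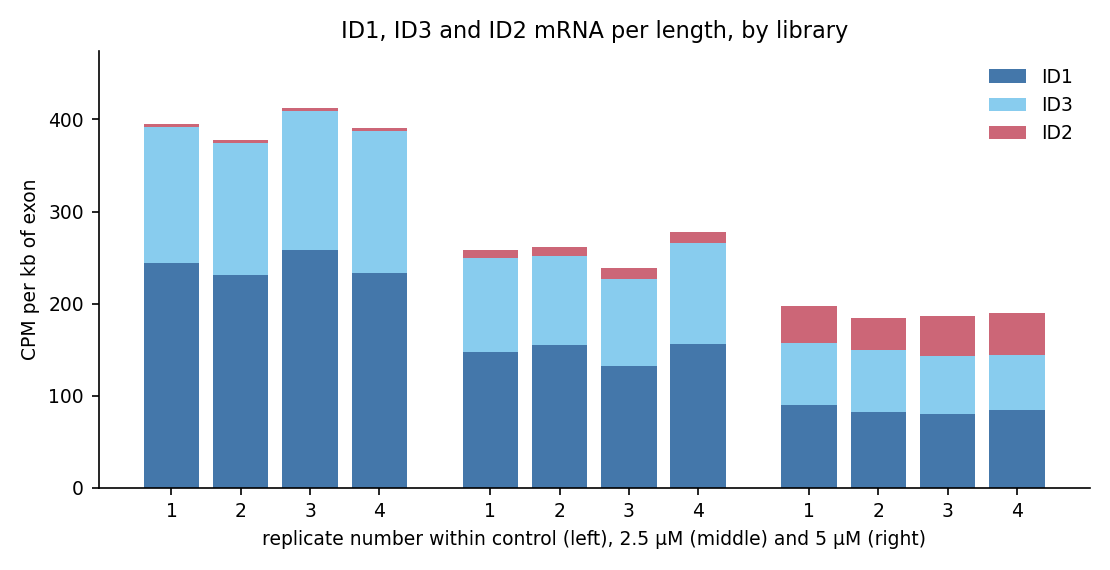
ID1, ID3 and ID2 mRNA as CPM per kilobase of exon, stacked for each library in 3 blocks of 4 (control, 2.5 µM and 5 µM acriflavine). The summed height averages 394 in controls, 259 at 2.5 µM and 190 at 5 µM, while the ID2 segment grows to 21.6% of the bar at 5 µM.

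Among the E-protein genes, TCF3 was lower at 5 µM, TCF4 was low throughout and highest at 5 µM, and TCF12 overlapped between all groups. TCF3 (ENSG00000071564), which encodes E12 and E47, measured 175, 164, 179 and 166 CPM in controls, 166, 176, 161 and 186 CPM at 2.5 µM and 115, 120, 104 and 111 CPM at 5 µM. Every 5 µM culture was below every other culture, and the 2.5 µM and control cultures overlapped. The log2 fold change was -0.60 ± 0.05 (SE) at 5 µM against control, 0.02 ± 0.05 at 2.5 µM against control and -0.62 ± 0.05 at 5 µM against 2.5 µM. Its second dose step minus its first was -0.64 ± 0.09, whereas the same difference was -0.10 ± 0.09 for ID1.

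TCF12 (ENSG00000140262), which encodes HEB, measured 101, 108, 89.5 and 92.9 CPM in controls. It measured 96.5, 107, 105 and 95.6 CPM at 2.5 µM, and 86.8, 92.5, 91.2 and 96.3 CPM at 5 µM. The groups overlapped in each comparison. The log2 fold change was -0.10 ± 0.06 (SE) at 5 µM against control, and with scaling to library totals it turned to 0.04 ± 0.06. At 2.5 µM against control it was 0.04 ± 0.06. At 5 µM against 2.5 µM it was -0.14 ± 0.06, and -0.05 with scaling to library totals.

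TCF4 (ENSG00000196628), which encodes E2-2 and is not the WNT effector TCF7L2, measured 1.33, 0.732, 0.804 and 0.592 CPM in controls. It measured 1.13, 1.55, 1.08 and 1.01 CPM at 2.5 µM, and 2.58, 1.63, 1.76 and 2.18 CPM at 5 µM. The 5 µM values lay above all others, and the 2.5 µM and control values overlapped. The log2 fold change of 1.22 ± 0.26 (SE) at 5 µM against control rests on 19 to 35 reads per library at 5 µM and 7 to 17 in controls, and its lowest value as single libraries were left out was 1.07.

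Per kilobase of exon, TCF3 was the most abundant E-protein mRNA, with 18.5 CPM at 5 µM and 28.1 in controls, followed by TCF12 with 9.71 at 5 µM and 10.4 in controls, and by TCF4 with 0.0732 at 5 µM and 0.0310 in controls. That order held with transcript lengths as well. The summed ID mRNAs were 10.2 ± 0.395 times the summed E-protein mRNAs in controls, 6.62 ± 0.261 times at 2.5 µM and 6.71 ± 0.363 times at 5 µM (SD, n = 4). The ratio was therefore lower in both treated groups than in controls, and the ranges of the treated groups overlapped. With transcript lengths the ratio was 7.12 ± 0.348 in controls, 4.66 ± 0.220 at 2.5 µM and 4.80 ± 0.254 at 5 µM.

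Set against the whole transcriptome, values without overlap were common. At 5 µM against control, 5 of the 6 tested members had 4 and 4 values that did not overlap, as did 70.8% of the 16839 genes. The same was seen for 3 members and 50.5% of genes at 2.5 µM against control, and for 5 members and 62.1% of genes at 5 µM against 2.5 µM. The family was chosen on a value of the first of these contrasts, and the other contrasts share libraries with it, so nothing is read from the counts.

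**Figure D3:**
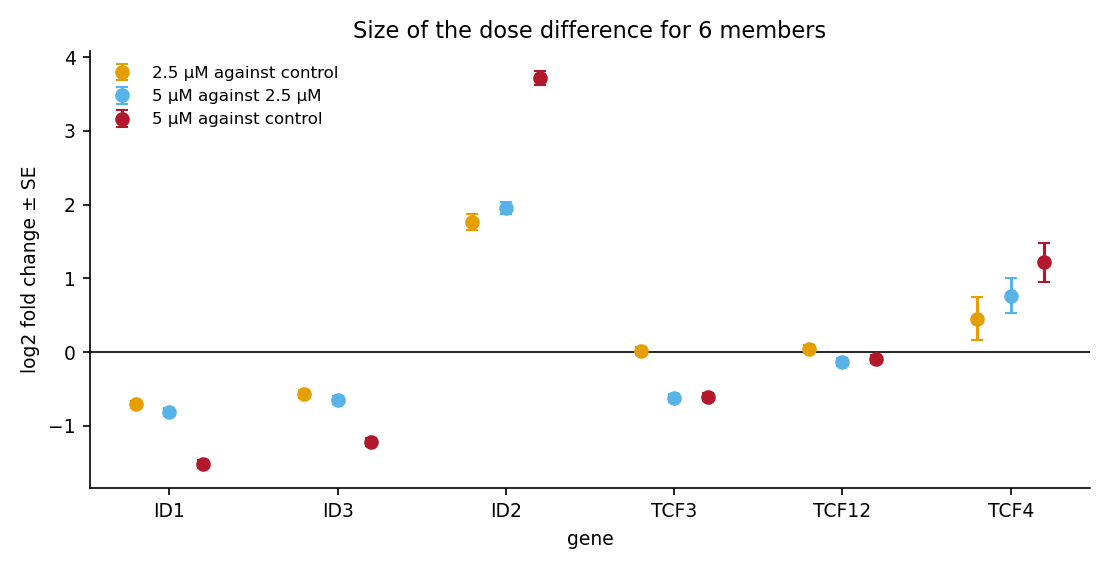
Log2 fold change with its SE for 6 members in each of 3 comparisons of 4 against 4 libraries. ID2 lies at 3.72 and TCF4 at 1.22 for 5 µM against control, ID1 at -1.52, ID3 at -1.22 and TCF3 at -0.60. TCF12 lies between -0.14 and 0.04 over the 3 comparisons.

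ID2 has a neighbour on the opposite strand and a processed copy, and reads of the copy could be mixed with its own. ID2-AS1, a noncoding gene on the opposite strand, has RefSeq starts at -193 and -195 from the start of ID2. From there it is read away from ID2. It had 12 counts in controls, 57 at 2.5 µM and 256 at 5 µM, each over 4 libraries. Its log2 fold change at 5 µM against control was 4.28 ± 0.31 (SE). ID2B, a pseudogene of ID2, had 14 counts in controls, 56 at 2.5 µM and 257 at 5 µM, with a log2 fold change of 4.07 ± 0.32 at 5 µM against control. The reads of ID2B may include reads of ID2, on which the family was chosen, and ID2-AS1 starts next to ID2. No p-values are therefore given for either gene. Of the reads of ID2-AS1 and ID2 together, ID2-AS1 held 3.42% in controls (exact 95% interval 1.78% to 5.90%), 4.24% at 2.5 µM (3.23% to 5.46%) and 5.07% at 5 µM (4.48% to 5.71%). Of the reads of ID2B and ID2 together, ID2B held 5.09% at 5 µM (4.50% to 5.73%) and 3.97% in controls (2.19% to 6.57%). With all libraries the intervals overlap for both genes. The first control library held 9 of the 14 control counts of ID2B. Without it the control share was 1.91% (0.623% to 4.397%), on 5 counts, an interval that lies below that of the 5 µM libraries. Leaving out any other control library instead gave 4.10% to 5.49%, with intervals that overlap that of the 5 µM libraries. Leaving out libraries here was chosen after seeing the data. Of the 7 genes listed as neighbours or copies, 5 were in the table and 3 tested, the third being TCF3P1, a pseudogene of TCF3. It averaged 5.00 CPM at 5 µM and 6.56 CPM in controls. The sources used here give neither the strand setting of the counting nor its treatment of reads that match several places. Reads of ID2 and ID2B therefore cannot be told apart with certainty. The exons counted for ID2-AS1 are not known here, so an overlap with ID2 was not tested.

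Genes whose log2 CPM followed ID2 closely over the 12 libraries were NEO1, which encodes the netrin and RGM receptor neogenin, DAB2, an endocytic adaptor, TNFRSF10B, a TRAIL receptor, and UBE3B, a ubiquitin ligase. Their Pearson correlations with ID2 were each 0.997. The genes with the most negative ones were CCDC106, ATF4P4, ATF4, LRBA and TRIM29, from -0.997 to -0.995. ATF4, a transcription factor of the integrated stress response, averaged 79.2 CPM at 5 µM and 408 CPM in controls, and ATF4P4 is a copy of it that may share its reads. Such likeness was common, since 1105 of 13816 genes ranked had a correlation over 0.95 with ID2, and the correlations share the 3 dose groups.

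The BMP and SMAD list, which holds both activators and inhibitors of the signalling upstream of the ID genes, was mostly higher at 5 µM. Of 28 listed genes 23 were tested at 5 µM against control: 15 rose, 4 fell and 4 were not called (adjusted p under 0.05, edgeR's quasi-likelihood test). Of all genes tested 78.2% were called, 38.7% as higher and 39.4% as lower. The 4 that fell were ENG (log2 fold change -0.69 ± 0.07, SE), SMAD4 (-0.61 ± 0.05), RGMB (-0.28 ± 0.08) and BMP2 (-0.21 ± 0.04). With scaling to library totals 17 rose and 2 fell, and RGMB and BMP2 were not called. The median log2 fold change of the list was 0.51, against -0.01 for all genes tested. Setting ZNF423 at its lower bound could not move that median, since it stayed the highest of the list. At 2.5 µM against control 9 rose, 6 fell and 8 were not called, with a median of 0.19, where 59.1% of all genes were called, 30.7% as higher and 28.5% as lower. At 5 µM against 2.5 µM 15 rose, 6 fell and 2 were not called, where 68.4% of all genes were called, 33.6% as higher and 34.8% as lower.

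BMP4, a BMP ligand, averaged 18.7 ± 0.728 CPM at 5 µM and 1.34 ± 0.0778 CPM in controls (SD, n = 4), and rose 13.9-fold (adjusted p = 3.66e-23, edgeR). FST, which encodes follistatin, a secreted antagonist of activins and some BMPs, averaged 20.4 ± 3.62 CPM at 5 µM and 0.518 ± 0.211 CPM in controls, a rise of 5.32 ± 0.20 on the log2 scale (SE; adjusted p = 1.2e-21, edgeR). ZNF423, a zinc finger partner of SMAD factors at BMP targets, had 0 counts in controls, 13 at 2.5 µM and 316 at 5 µM. Against a floor of 3 counts over the control group, on TMM-scaled totals, it was at least 99.1-fold higher at 5 µM. The inhibitory SMADs, themselves feedback targets of the pathway, were higher too, while ID1 and ID3 were lower in the same cells. SMAD6 averaged 57.2 ± 0.571 CPM at 5 µM and 28.0 ± 3.32 CPM in controls, a log2 rise of 1.03 ± 0.07 (adjusted p = 3.06e-15, edgeR), and SMAD7 averaged 76.4 ± 1.72 CPM at 5 µM and 41.4 ± 2.34 CPM in controls, a rise of 0.88 ± 0.06 (adjusted p = 2.91e-15, edgeR).

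Of 8 other regulators of ID transcription, 7 were tested at 5 µM against control, of which 3 rose and 4 fell, with a median of -0.52. In that comparison 78.2% of all genes tested were called. ATF3, a stress-induced factor known to repress ID1 together with SMAD3, averaged 160 ± 13.8 CPM at 5 µM and 26.4 ± 2.24 CPM in controls and rose by 2.60 ± 0.07 on the log2 scale (adjusted p = 1e-26, edgeR). EGR1, an immediate early factor, averaged 3.30 CPM at 5 µM and 0.666 CPM in controls, and rose by 2.31 ± 0.24 (adjusted p = 1.52e-10, edgeR). KLF17, a zinc finger factor known to repress ID1, averaged 1.60 CPM at 5 µM and 4.31 CPM in controls, and fell by 1.44 ± 0.20 (adjusted p = 1.08e-07, edgeR). At 2.5 µM against control 3 rose, 2 fell and 2 were not called, where 59.1% of all genes were called.

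**Figure D4:**
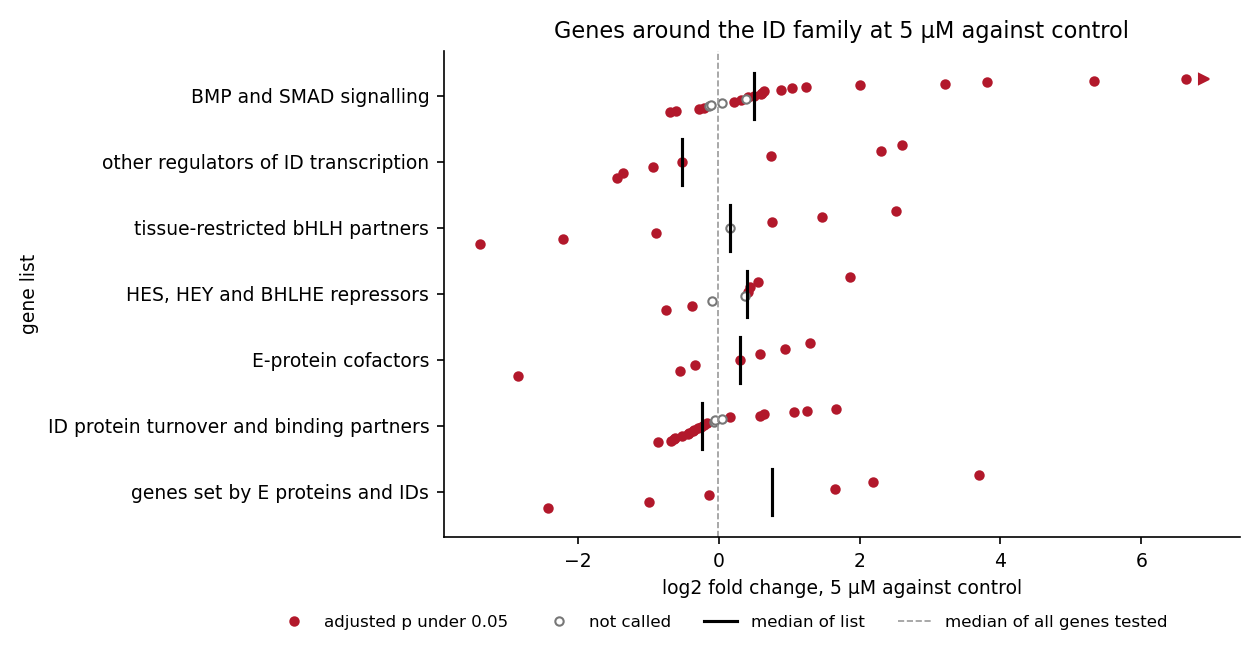
Log2 fold change at 5 µM against control of the tested genes of 7 lists around the ID family, with filled points for an adjusted p under 0.05 in edgeR's quasi-likelihood test, list medians as bars and the median of all genes as a dashed line. ZNF423, with 0 control counts, is drawn with an arrow at its lower bound of 99.1-fold, and the list medians run from -0.52 to 0.76.

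Tissue-restricted bHLH factors pair with E proteins to bind DNA, and few of them were detected. Of 38 listed, 7 passed the filter, and 16 of the other 31 had 0 counts in every library. At 5 µM against control 3 rose, 3 fell and 1 was not called, with a median of 0.16, where 78.2% of all genes were called. NHLH1, a neuronal factor, averaged 2.00 CPM at 5 µM and 0.348 CPM in controls, and rose by 2.52 ± 0.32 on the log2 scale (SE; adjusted p = 9.37e-09, edgeR). TWIST2, a mesenchymal factor, averaged 2.92 CPM at 5 µM and 1.09 CPM in controls, and rose by 1.46 ± 0.24 (adjusted p = 1.92e-06, edgeR). The gene not called was TWIST1, at 18.5 CPM at 5 µM and 16.6 CPM in controls (0.16 ± 0.08, adjusted p = 0.0763, edgeR). With scaling to library totals TWIST1 was called higher, by 0.30. LYL1, a blood and vessel factor, averaged 0.536 CPM at 5 µM and 2.51 CPM in controls, and fell by 2.21 ± 0.27 (adjusted p = 6.53e-09, edgeR). At 2.5 µM against control 2 rose, 2 fell and 3 were not called, and 2 genes were called without the second control library. In that comparison 59.1% of all genes tested were called.

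The HES, HEY and BHLHE genes encode bHLH repressors, several of which answer to Notch signalling. Of 13 listed, 8 were tested at 5 µM against control: 4 rose, 2 fell and 2 were not called, with a median of 0.40. In that comparison 78.2% of all genes tested were called. With scaling to library totals 5 rose and 1 fell. At 2.5 µM against control 2 rose, 4 fell and 2 were not called, with a median of -0.30, where 59.1% of all genes were called. HES6 averaged 13.4 CPM at 5 µM and 3.69 CPM in controls and rose by 1.86 ± 0.12 on the log2 scale (adjusted p = 1.63e-15, edgeR). BHLHE40, a clock-linked repressor, averaged 58.3 CPM in controls, 34.6 CPM at 2.5 µM and 34.8 CPM at 5 µM, and fell by 0.75 ± 0.08 at either dose against control (adjusted p = 2.26e-10 at 5 µM and 5.52e-10 at 2.5 µM, edgeR). HES1, a core Notch target, changed direction with dose. It averaged 4.92 CPM in controls, 3.10 CPM at 2.5 µM and 7.20 CPM at 5 µM, with log2 fold changes of 0.56 ± 0.14 at 5 µM against control (adjusted p = 0.000677, edgeR) and -0.67 ± 0.17 at 2.5 µM against control (adjusted p = 0.000822, edgeR). Its 5 µM and control values overlapped.

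E-protein cofactors and partners that act on ID proteins complete the surroundings of the family. Of 10 cofactors 7 were tested at 5 µM against control, of which 4 rose and 3 fell, with a median of 0.31. In that comparison 78.2% of all genes tested were called. LDB1, the bridging protein of LMO and bHLH complexes, averaged 91.7 CPM at 5 µM and 37.4 CPM in controls and rose by 1.30 ± 0.06 on the log2 scale (adjusted p = 2.7e-20, edgeR). CREBBP, an acetyltransferase recruited by E proteins, averaged 177 CPM at 5 µM and 91.5 CPM in controls and rose by 0.95 ± 0.05 (adjusted p = 2.32e-18, edgeR). LMO1, a LIM-only adaptor, averaged 0.472 CPM at 5 µM and 3.23 CPM in controls and fell by 2.85 ± 0.29 (adjusted p = 1.11e-10, edgeR).

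The genes for turnover and binding of ID proteins went both ways at 5 µM. Of 22 listed, all tested, 6 rose, 13 fell and 3 were not called at 5 µM against control, with a median of -0.23, where 39.4% of all genes tested were called as lower. With scaling to library totals 7 rose and 10 fell. At 2.5 µM against control 8 rose, 3 fell and 11 were not called, and with scaling to library totals 9 rose and 1 fell. In that comparison 59.1% of all genes tested were called. DYRK1B and DYRK1A, kinases of which DYRK1A is known to phosphorylate ID2, rose by 1.67 ± 0.09 and 1.06 ± 0.05 at 5 µM against control (adjusted p = 1.03e-17 and 1.17e-18, edgeR). CAV1, a caveolar protein known to bind ID1, averaged 358 CPM at 5 µM and 150 CPM in controls and rose 2.39-fold (adjusted p = 4.67e-22, edgeR). USP1, a deubiquitinase known to stabilise ID1, ID2 and ID3, averaged 63.9 CPM at 5 µM and 86.4 CPM in controls and fell by 0.44 ± 0.07 (adjusted p = 3.06e-06, edgeR). VHL averaged 44.1 CPM at 5 µM and 63.0 CPM in controls and fell by 0.52 ± 0.06 (adjusted p = 2.41e-09, edgeR), and EPAS1, the HIF2A gene, averaged 302 CPM at 5 µM and 391 CPM in controls and fell by 0.37 ± 0.05 (adjusted p = 6.16e-09, edgeR). RB1, whose protein binds ID2, averaged 32.5 CPM at 5 µM and 34.0 CPM in controls, with no call (adjusted p = 0.47, edgeR). Of the same family, RBL2 averaged 36.4 CPM at 5 µM and 58.2 CPM in controls and fell by 0.68 ± 0.06 (adjusted p = 5.76e-12, edgeR). RBL1 averaged 22.8 CPM at 5 µM, 38.7 CPM at 2.5 µM and 26.3 CPM in controls. Against control it was called higher at 2.5 µM and lower at 5 µM. Its 5 µM call was lost with scaling to library totals.

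The last list holds 6 genes whose transcription E proteins and IDs are known to set, among them CDK inhibitors, which block the cell cycle. At 5 µM against control 3 rose and 3 fell, with a median of 0.76, and at 2.5 µM 3 rose and 3 fell again. Of all genes tested 78.2% were called at 5 µM and 59.1% at 2.5 µM, each against control. CDKN1A, encoding p21, an E-protein target, averaged 663 ± 17.8 CPM at 5 µM and 211 ± 24.3 CPM in controls and rose by 1.65 ± 0.06 on the log2 scale (adjusted p = 4.89e-22, edgeR). CDKN1C, encoding p57, averaged 143 ± 11.9 CPM at 5 µM and 770 ± 70.3 CPM in controls and fell by 2.42 ± 0.06 (adjusted p = 1.06e-23, edgeR). CDKN2B fell by 0.99 ± 0.07 (adjusted p = 6.3e-14, edgeR) and CDKN2A by 0.14 ± 0.05 (adjusted p = 0.00878, edgeR) at 5 µM against control. With scaling to library totals CDKN2A was not called in that comparison. CDH1, encoding E-cadherin, averaged 4.85 ± 0.568 CPM at 5 µM and 0.358 ± 0.135 CPM in controls and rose by 3.70 ± 0.27 (adjusted p = 2.63e-14, edgeR), still a low level. THBS1, encoding thrombospondin-1, known as a target of repression by ID1, averaged 691 ± 42.6 CPM at 5 µM and 151 ± 23.7 CPM in controls and rose 4.59-fold (adjusted p = 2.06e-13, edgeR).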

How the data were processed

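The authors deposited raw read counts for Ensembl genes, as whole numbers. The submitters' processing notes name the build GRCh37 and these tools, without roles: STAR 2.4.1d, Bowtie2 2.2.4, featureCounts 1.4.6, cutadapt 1.7.1, edgeR 3.8.6, bedtools 2.17.0, Cufflinks 2.1.1 and SAMtools 1.1. The sources used here give no strand setting, no treatment of multimapping reads and no annotation release. Per the labels' protocols, libraries were stranded poly-A libraries. Symbols were found for 51662 of 63152 genes, which held 99.2% of counts. Exon lengths come from GENCODE 29 (GRCh38), so no coordinates of the counted genes are given. Promoters come from RefSeq (GRCh38.p14).

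Genes were filtered with filterByExpr, which left 16839 of 63152. All 12 libraries entered 1 fit in edgeR 4.0.16 (R 4.3.3) with TMM scaling and a robust quasi-likelihood fit (glmQLFit, glmQLFTest) with 9 residual degrees of freedom. Benjamini-Hochberg adjustment covered all genes tested, with a threshold of 0.05. CPM values use TMM-scaled library sizes and are given as mean ± SD. The SE of a log2 fold change is its size over the root of the F statistic. Correlations use log2 CPM with a prior count of 2, over genes with a mean log2 CPM of at least 1. The biological coefficient of variation was 5.43%. Library totals were 10733567 to 15116842 counts. A gene with 0 counts was set to a floor of 3 counts, and intervals are exact 95% binomial intervals of counting error only. No 2 libraries were identical.

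The members and lists were chosen with earlier results of these data known. From each list the 3 called genes with the largest fold change at 5 µM against control and a mean log2 CPM of at least 0 were named, with SMAD6, SMAD7, USP1, RB1, VHL, EPAS1, CDKN1A, ID2-AS1 and ID2B whatever their values, and the 5 genes most like and unlike ID2, of which 1 is not reported here. The BMP and SMAD genes that fell at 5 µM against control were named as well. RBL1, RBL2, TWIST1, CDKN2A and CDKN2B were also named. Of 132 list entries 130 were matched. Alternatives were RLE, upper quartile and library size scaling, no filter, a replicate block, fits of the 2 groups compared, DESeq2 1.42.0 and leaving out each library. The steps were tested on simulated data.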

Additional observations from a re-analysis of the deposited data

How the results depend on the processing

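Each result was recomputed under 19 alternatives. Of 342 values for the members 337 moved by less than the replicate spread, 5 moved more and 0 changed the sign of a called difference. Calls of members that were lost were not counted. The 5 came from scaling to library totals, which put the median log2 fold change of all genes at 0.12 for 5 µM against control (-0.01 with TMM) and gave -1.38 for ID1, -1.08 for ID3, -0.47 for TCF3 and 0.04 for TCF12, and -0.05 for TCF12 at 5 µM against 2.5 µM. Genes called ranged from 12767 to 15618 at 5 µM against control, from 9382 to 10087 at 2.5 µM against control and from 10930 to 13125 at 5 µM against 2.5 µM. Of 456 list counts 451 stayed within 1.5 times. Without the filter on low counts, more genes were tested and 10 tissue-restricted bHLH partners in place of 6 were called at 5 µM against control, and 9 in place of 5 at 5 µM against 2.5 µM. At 2.5 µM against control DESeq2 called 2 of these partners in place of 4, and leaving out single libraries gave 2 to 4. In the fit of only the 2 groups compared, 1 of the 2 neighbouring and copy genes counted there was not among the genes tested. The cause was not tested for the counts under DESeq2 and with single libraries left out. The replicate numbers did not pair the samples, since same-numbered deviations had correlations of -0.13 to 0.0745 and 0 of 12 were over 0.1. With a replicate block 13091 genes were called at 5 µM against control, 9828 at 2.5 µM against control and 11423 at 5 µM against 2.5 µM. Depth limits TCF4, at 7 to 35 reads per library, and ID4, at 0.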
